A study of Mus musculus with 15 samples.

Results

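The effect of knocking down Hdac2 was examined in mouse embryonic fibroblasts that had already lost Hdac1, by comparing 3 arrays of KO/Kd cells with 3 arrays of KO cells, 6 of the 15 arrays of the series, across 13382 genes. All 6 arrays came from primary male fibroblasts homozygous for a floxed Hdac1 allele. These cells had been transduced with a retrovirus for Cre-ERT2, a Cre recombinase that enters the nucleus when tamoxifen binds it, and with a second retrovirus. In KO cells the second virus expressed a scrambled micro-RNA, and in KO/Kd cells a small hairpin micro-RNA directed against Hdac2. Both received 200 nM tamoxifen, so that Hdac1 deletion, Cre activity and the drug were common to the groups. The same 2 populations with ethanol in place of tamoxifen, 3 arrays each and still with intact Hdac1, gave the control cells (scrambled) and the Kd cells (anti-Hdac2), and Hdac1 +/+ fibroblasts with tamoxifen made up the other 3 arrays. The labels name no separate cultures, embryos or transductions behind the 3 arrays of a group. P-values therefore measure the spread between these arrays, which may be technical. The knockdown cannot be told apart from any other difference between the scrambled and the anti-Hdac2 population.

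Hdac1 and Hdac2 are closely related class I histone deacetylases. They remove acetyl groups from histone tails as the catalytic subunits of the Sin3, NuRD and CoREST corepressor complexes, where either enzyme can take the other's place. In fibroblasts the pair is known for repressing the cyclin-dependent kinase inhibitor p21 (Cdkn1a) and for supporting cell division, and cells that keep 1 of the 2 enzymes usually tolerate the loss of the other.

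Intensities are given on the linear scale of the deposited table. Differences are log2 fold changes of intensity + 16, KO/Kd over KO, with the standard error (SE) of the limma fit and a Benjamini-Hochberg adjusted p over all 13382 genes, called past the threshold when under 0.05. This scale understates changes of dim genes. Array medians were 24.97 to 28.6 in KO and 29.1 to 30.7 in KO/Kd cells, and the 75th percentiles 420.4 to 509 and 501 to 531. The median fold change of all genes was 0.08, against -0.02 after quantile normalization, -0.01 after centring each array and -0.03 after scaling to a common 75th percentile.

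Hdac2 was low in the cells that carried its micro-RNA. Its most intense probe set read 6492, 7308 and 7702 on the KO arrays and 1029.7, 1013 and 1031 on the KO/Kd arrays. The 3 KO/Kd values lay within a narrow band, far below the lowest KO value (log2 fold change -2.78 ± 0.0744 SE, adjusted p = 4.02e-14). A second Hdac2 probe set went from 3784 to 579 (-2.67), and the third stayed at 20.1 and 21.6, near the level of unexpressed genes. In ethanol-treated cells with intact Hdac1 the same micro-RNA gave -2.86, and the 2 Hdac2 effects did not differ past the threshold (difference 0.08 ± 0.105 SE, adjusted p = 0.612).

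Hdac1 was measured at 155, 144 and 183 in KO and at 106, 158 and 203 in KO/Kd cells, against 3557 ± 101 in control cells (SD, n = 3). The ranges of KO and KO/Kd arrays overlapped, and the difference was -0.078 (adjusted p = 0.683). Hdac3, the class I enzyme of the NCoR complexes, read 1177, 1319 and 1307 in KO and 1399, 1433 and 1573 in KO/Kd cells, with no overlap (0.21 ± 0.0704 SE, adjusted p = 0.0177). After quantile normalization its difference was 0.09 with an adjusted p of 0.164, and the other scalings also left it short of the threshold, as did leaving out KO replicate 1 (0.16) or KO/Kd replicate 3 (0.16). Hdac8, a class I enzyme outside these complexes, went from 98.4 to 131 (0.37), and 0.14 and not past the threshold after quantile normalization.

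**Figure D1:**
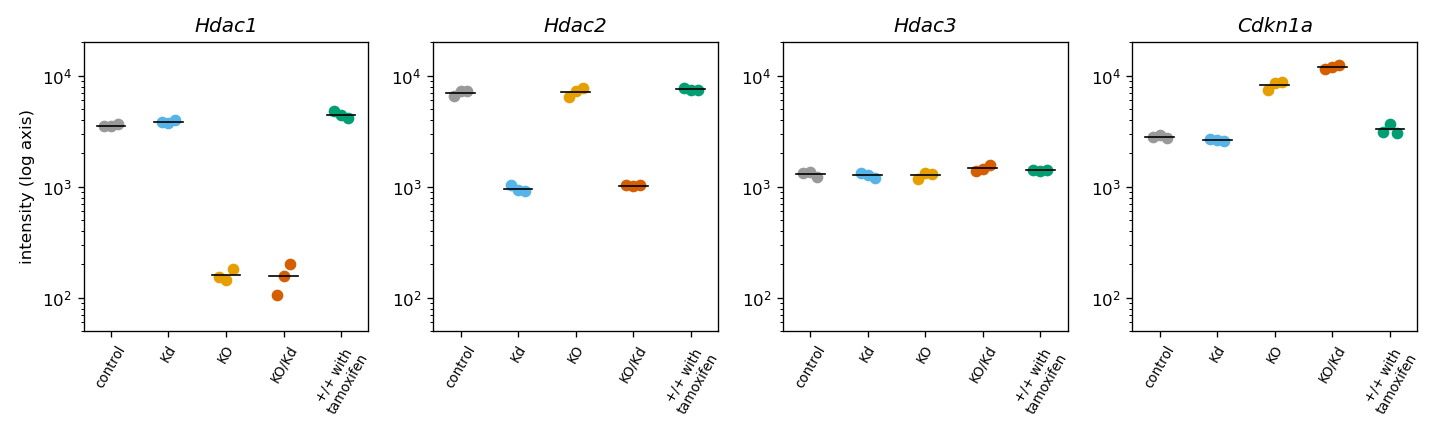
Intensity on a logarithmic axis of Hdac1, Hdac2, Hdac3 and Cdkn1a in the 5 groups. Each point is 1 array and each black line the mean of 3 arrays. The 6 Hdac1-deleted arrays lie under 204 for Hdac1, and Hdac2 is near 1000 on every array with the anti-Hdac2 micro-RNA and at least 6492 on the others.

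Among the class II and class IV deacetylases, 3 of 7 rose and 2 fell. The background over all genes was 36.1% higher and 20.6% lower. Hdac6, a mainly cytoplasmic tubulin deacetylase, read 465, 431 and 501 in KO and 1554, 1361 and 1677 in KO/Kd cells (1.68 ± 0.0964 SE, adjusted p = 4.07e-10). Hdac11, the class IV enzyme, rose from 37.9 to 124 (1.400), and the class IIa Hdac9 from 17.1 to 32.8 (0.55), both dim in KO cells. Hdac7, a class IIa enzyme, fell from 958 to 486 (-0.92), and Hdac10 from 194 to 119.8 (-0.61). Hdac4 (0.068) and Hdac5 (-0.14) did not pass the threshold, and Hdac5 was lower past it after each of the 3 scalings. Of 7 sirtuins, the NAD-dependent deacetylases, Sirt2 (1.04) and Sirt7 (0.47) rose and Sirt5 (-0.77) and Sirt1 (-0.203) fell. The Sirt1 call was lost under 7 alternatives, among them the replicate block (adjusted p = 0.0547) and, with limma, without KO replicate 2, KO replicate 3 or KO/Kd replicate 1 (-0.17, -0.19 and -0.14). Without KO replicate 1 Hdac5 was lower past the threshold (-0.23).

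The subunits of the complexes that hold Hdac1 and Hdac2 moved little. Of 29 tested, 15 rose and 3 fell (5 without KO/Kd replicate 2), with a median of 0.23, and after quantile normalization 11 rose and 10 fell. The largest increase was in Sin3a, the scaffold of the Sin3 complex, at 483, 585 and 763 in KO and 1037, 1251 and 1062 in KO/Kd cells (0.87 ± 0.123 SE, adjusted p = 1.26e-05). Other Sin3 subunits followed, with Ing2 (0.78), Sap130 (0.698) and Suds3 (0.68). Chd3, a NuRD remodeller, fell from 668 to 365 (-0.84).

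Across all genes, 7598 of 13382 (56.8%) passed the threshold, 4836 higher (36.1%) and 2762 lower (20.6%) in KO/Kd cells. The 36.1% and 20.6% are the shares to set beside the list counts below. The balance depended on the scaling: 63.6% of the calls were higher on the deposited scale, against 4019 higher (30.0%) and 4177 lower (31.2%) after quantile normalization. They were 4199 (31.4%) and 3908 (29.2%) after centring, and 3928 (29.4%) and 4244 (31.7%) at a common 75th percentile. Called genes with at least a 2-fold change numbered 1138 higher (8.50%) and 466 lower (3.48%), and 1137 and 466 of these kept their call and direction after quantile normalization. At 4-fold there were 285 higher and 83 lower, and at 16-fold 37 higher and 1 lower. The KO level of the 2-fold-higher genes had a median of 146, with 345 of 1138 under 50, whereas the 2-fold-lower genes had a median of 843 and none under 50. A gene at background in KO cells cannot show a decrease on these arrays.

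**Figure D2:**
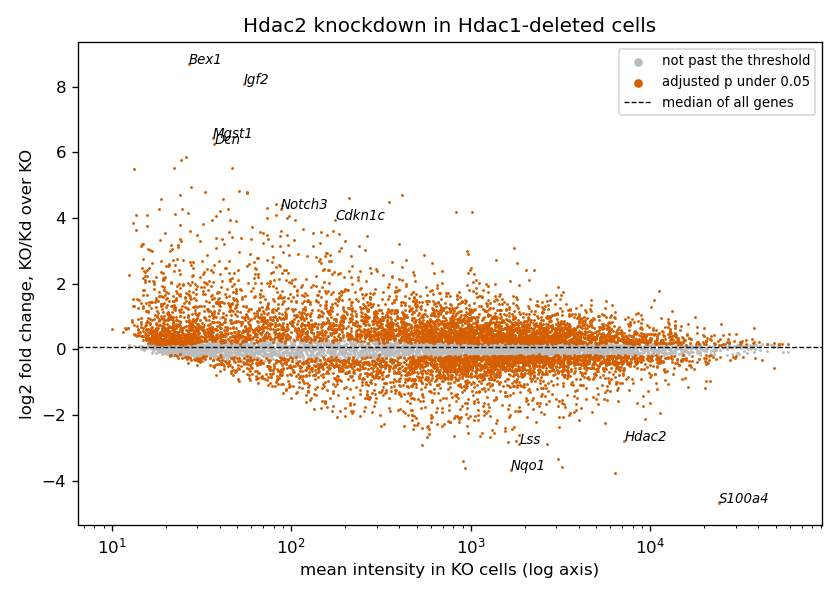
Log2 fold change of KO/Kd over KO against the mean KO intensity (logarithmic axis), 1 point per gene, 13382 genes. Genes past the threshold are orange, and the dashed line is the median of all genes (0.08). The largest increases, Bex1 (8.68) and Igf2 (8.09), start at intensities under 60, and the largest decrease, S100a4 (-4.66), starts at 24196.

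The largest increase was in Bex1, a small brain-expressed X-linked protein. It read 17.7, 27.9 and 34.7 on the KO arrays and 19669, 13581 and 19218 on the KO/Kd arrays (8.68 ± 0.155 SE, adjusted p = 4e-16). Its KO values lay near background, and its KO/Kd values were at least 13581 on every array. The related Bex2 went from 18.4, 25.6 and 22.2 to 1772, 1672 and 1746 (5.52 ± 0.0708 SE), Bex4 from 15.4 to 126 (2.13) and Bex3 from 6295 to 12392 (0.98). All 4 tested members of this family rose, and Bex3 was the only one of them well above background in KO cells. A member dim in all other groups could be tested only through its KO/Kd arrays. For such members an increase was partly fixed by the filter.

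Igf2, the imprinted fetal growth factor, was second. It measured 44.3, 64.2 and 54.1 in KO and 21069, 17009 and 19176 in KO/Kd cells (8.09 ± 0.178 SE, adjusted p = 4.29e-15). Averaging it with a second, dim probe set gave 4.76. Mgst1, a microsomal glutathione transferase, was at 32.4, 34 and 43.2 in KO and 4545, 4480.3 and 4385 in KO/Kd cells (6.42 ± 0.0934 SE). Dcn, the collagen-binding proteoglycan decorin, was at 27.1, 42.7 and 42.2 and 4297, 3599.5 and 4041 (6.24 ± 0.12 SE). Each of these genes was near background on all KO arrays and bright on all KO/Kd arrays.

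Clca3a2, of the calcium-activated chloride channel regulator family, rose from 26 to 2522 (5.85). Itih5, which binds hyaluronan, rose from 24.4 to 2178 (5.76), and Gpx3, the secreted glutathione peroxidase, from 46.8 to 2894 (5.54). Col14a1, a fibril-associated collagen, rose from 13.3 to 1320.2 (5.505, and 3.05 as the mean of its probe sets). Rgcc, a regulator of the cell cycle, rose from 27.7 to 1341 (4.95), and Sfrp1, a secreted Wnt inhibitor, from 56.6 to 1987 (4.76). The serine protease Prss12 (4.82), the synaptotagmin Syt17 (4.795), the intracellular serpin Serpinb6b (4.79) and the monooxygenase-like Moxd1 (4.704) completed the set. Moxd1 alone of the 15 exceeded 100 in KO cells, at 412.

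The same genes were looked up in the other groups. In +/+ fibroblasts with tamoxifen, Igf2 measured 701 ± 196, Mgst1 472 ± 56.2 and Sfrp1 488 ± 37.8 (SD, n = 3). These 3 values lay above the KO level and below that of KO/Kd cells, as did that of Moxd1 (843 ± 90.6). The other 11 of the 15 genes had means of 17.8 (Col14a1) to 55.6 (Serpinb6b) in +/+ cells, near their 13.3 to 57 in KO cells. In the scrambled and anti-Hdac2 populations kept in ethanol, Igf2 measured 54.5 ± 14.4 and 69.6 ± 8.51, and Mgst1 15.6 ± 0.504 and 20 ± 3.14. Without Hdac1 deletion the 2 populations thus both held Igf2 and Mgst1 near background. This did not hold for all 15 genes: Moxd1 measured 318 in control and 580 in Kd cells, and Dcn 22.4 and 298.

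The largest decrease was in S100a4, a calcium-binding protein widely used as a fibroblast marker. It read 21355, 25312 and 25920.0 in KO and 849, 1156 and 839 in KO/Kd cells (-4.66 ± 0.103 SE, adjusted p = 4.52e-15). Nqo1, a quinone reductase and target of the oxidant sensor NRF2, went from 1623, 1597 and 1809 to 75.7, 154 and 139 (-3.65 ± 0.183 SE). Acta1, the skeletal muscle actin that fibroblasts express under serum response factor, went from 2805, 3412 and 3432 to 172, 323 and 301 (-3.56 ± 0.16 SE). None of these 3 genes had overlapping arrays. In +/+ fibroblasts with tamoxifen, which had no knockdown, S100a4 measured 15292, Nqo1 225 and Acta1 1170. The +/+ level of Nqo1 was thus nearer to that of KO/Kd than of KO cells.

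Pcolce2, an enhancer of procollagen processing, fell from 928 to 62.3 (-3.59), and the kinase-like Styk1 from 911 to 73.1 (-3.38). The interferon-activated Ifi202b fell from 3073 to 314 (-3.33), and its probe set is of a kind that can bind transcripts of related genes. The monocyte attractant Ccl2 (-2.88), lanosterol synthase Lss (-2.87), the proteoglycan asporin (Aspn, -2.804) and the secreted carbonic anhydrase Car6 (-2.79) also fell. Cell cycle genes filled the last places, with Lrr1 (-2.67), Pimreg (-2.67) and the pocket protein p107 (Rbl1, -2.64).

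**Figure D3:**
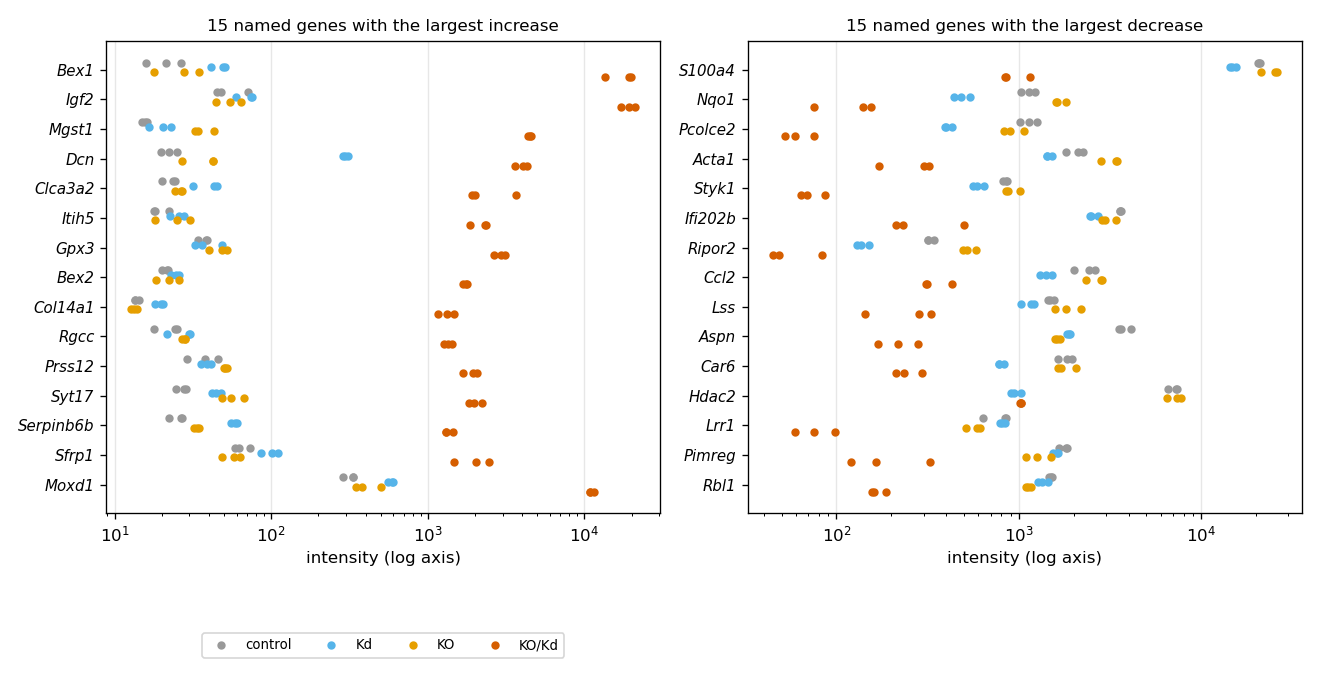
Intensity on a logarithmic axis of the 15 genes under the naming rule with the largest increase and the 15 with the largest decrease, Hdac2 included, with 3 arrays per group in control, Kd, KO and KO/Kd cells. In every row the KO/Kd arrays stand clear of the KO arrays, and in the left panel Dcn is the one gene whose Kd arrays (298 on average) also stand far above control.

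Most cell cycle genes fell. Of 50 mitosis genes tested, 49 fell and 1 rose, with a median of -1.81. Of 42 DNA replication genes 40 fell and 0 rose, with a median of -1.25. The background was 20.6% lower, and the median of all genes 0.08. After quantile normalization 49 and 41 fell.

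Aurka, the Aurora A spindle kinase, measured 1667, 1756 and 2152 in KO and 244, 421 and 241 in KO/Kd cells (-2.598 ± 0.151 SE, adjusted p = 4.86e-10). Plk1, the polo-like mitotic kinase, measured 1512, 1751 and 1996 and 289, 475 and 254 (-2.36 ± 0.157 SE, adjusted p = 2.4e-09). Both kinases stayed well above background in KO/Kd cells on every array. The condensin subunit Ncapg (-2.55), the spindle protein Hmmr (-2.47) and the kinetochore protein Nuf2 (-2.36) were close to them. Foxm1, the transcription factor of the G2 and M programme, fell from 480.4 to 85.2 (-2.300), and the mitotic kinase Cdk1 from 6543 to 2808 (-1.23). The smallest decrease was that of the checkpoint protein Bub3 (-0.26), which was 0.20 higher without probe sets that can bind related transcripts. Pttg1, the securin that holds back separase, went the other way, from 5881 to 9362 (0.67).

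In the replication list, Cdc6, which loads the MCM helicase, measured 1407, 1540.3 and 1685 in KO and 269, 496 and 164 in KO/Kd cells (-2.39 ± 0.237 SE, adjusted p = 2.52e-07). Thymidine kinase Tk1 (-2.42), the initiation factors Mcm10 (-2.33) and Cdc45 (-2.26) and the polymerase subunit Pole (-2.03) had the other largest decreases. As the mean of their probe sets Mcm10 fell by 0.96 and Cdc45 by 1.17. The MCM helicase subunits Mcm2 to Mcm7 all fell, from -1.93 for Mcm5 to -0.77 for Mcm6. The sliding clamp Pcna fell from 20531 to 10588 (-0.96). Tyms (-0.25) and Gins4 (0.012) did not pass the threshold. Tyms passed it as lower without KO replicate 1 (-0.36), KO replicate 2 (-0.31) or KO/Kd replicate 2 (-0.305) and after each scaling.

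Promoters are printed for 5 of these genes and of the cholesterol genes described further on, because members of these lists moved together. The sequences are RefSeq's on mouse build GRCm38.p6, from 250 bases before to 50 bases after the annotated start, 5′ to 3′ on the strand of the gene. Capitals mark letters that match a searched motif on either strand. In Plk1 (chr7:122159185-122159484, plus strand) and Aurka (chr2:172370521-172370820, minus strand) they mark the cell cycle genes homology region, CHR (TTTGAA or TTCAAA), and the CCAAT box (CCAAT or ATTGG). In Cdc6 (chr11:98907901-98908200, plus strand) they mark an E2F-type match (TTTNNCGC or GCGNNAAA).
Plk1: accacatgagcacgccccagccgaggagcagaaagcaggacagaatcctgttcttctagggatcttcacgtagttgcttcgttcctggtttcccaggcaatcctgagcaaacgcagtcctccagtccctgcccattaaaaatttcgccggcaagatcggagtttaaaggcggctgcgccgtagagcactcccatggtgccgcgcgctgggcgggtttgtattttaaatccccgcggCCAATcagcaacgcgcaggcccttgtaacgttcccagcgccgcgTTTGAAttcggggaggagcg
Aurka: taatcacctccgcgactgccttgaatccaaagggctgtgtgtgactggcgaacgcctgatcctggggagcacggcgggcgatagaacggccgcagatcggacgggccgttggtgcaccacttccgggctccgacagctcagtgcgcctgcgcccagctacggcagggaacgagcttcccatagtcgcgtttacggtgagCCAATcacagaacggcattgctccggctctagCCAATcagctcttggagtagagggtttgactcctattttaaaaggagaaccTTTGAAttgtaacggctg
Cdc6: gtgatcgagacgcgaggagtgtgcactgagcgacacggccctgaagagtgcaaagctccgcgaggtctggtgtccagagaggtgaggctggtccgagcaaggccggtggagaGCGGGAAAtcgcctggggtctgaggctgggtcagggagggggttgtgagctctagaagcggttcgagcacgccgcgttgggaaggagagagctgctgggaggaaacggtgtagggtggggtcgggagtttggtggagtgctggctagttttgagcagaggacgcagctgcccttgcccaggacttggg

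Such promoters were at hand for 42 of the 50 mitosis genes, 34 of the 42 replication genes and 10732 of the 13382 genes tested. The CHR letters were found in 30 of 42 mitosis promoters (71.4%), in 11.8% of replication promoters and in 12% of all promoters. The CCAAT box was in 73.8% of mitosis and 61.8% of replication promoters, against 38.6% of all. The E2F-type letters were in 14 of 34 replication promoters (41.2%) and in 14.3% of mitosis promoters, against 8.36% of all. Among the 376 genes with a promoter that fell by at least 2-fold, 25.5% held a CHR match, 52.1% a CCAAT box and 13.6% an E2F-type match. A match of letters is a description and not a measured binding site.

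Of 7 CDK inhibitors, 6 rose and 0 fell, with a median of 0.97, against 36.1% of all genes higher and 20.6% lower. Cdkn1c, the imprinted inhibitor p57, read 128, 191 and 209 in KO and 2663, 3069 and 2950.1 in KO/Kd cells (3.95 ± 0.129 SE, adjusted p = 4.1e-13). Cdkn2b, the INK4 inhibitor p15, read 234, 269 and 319 and 1010.2, 658 and 909 (1.58 ± 0.145 SE, adjusted p = 1.01e-07). Neither gene had overlapping arrays, and Cdkn1c had by far the larger change.

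Cdkn1a, which encodes p21, read 7432, 8638 and 8855 in KO and 11557, 11974 and 12487 in KO/Kd cells (0.53 ± 0.082 SE, adjusted p = 3.27e-05), against 2811 ± 98.5 in control cells (SD, n = 3). Its level was thus already above control in KO cells, and was a further 0.53 higher in KO/Kd cells. The other INK4 inhibitors p18 (Cdkn2c, 1.16) and p19 (Cdkn2d, 0.76) and the Cip/Kip inhibitor p27 (Cdkn1b, 0.49) rose too. Cdkn2a, the INK4a/ARF locus, read 27.3, 67 and 26.4 in KO and 51.3, 41.9 and 278 in KO/Kd cells and did not pass the threshold (0.97 ± 0.435 SE, adjusted p = 0.0688). KO/Kd replicate 3 stood far above the others, and without it the difference was 0.22. Without KO replicate 2, KO/Kd replicate 1 or KO/Kd replicate 2 the difference passed the threshold (1.29, 1.29 and 1.397).

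The G1 and S regulators split. Of 19 tested 4 rose and 8 fell. The pocket proteins, which hold E2F factors inactive, moved in opposite directions: Rbl1 went from 1122 to 167 (-2.64), whereas Rbl2 (p130) went from 996, 1099.6 and 1228 to 3344, 3451 and 3482 (1.62 ± 0.0966 SE, adjusted p = 6.37e-10) and Rb1 from 1412 to 2303 (0.704). The repressive E2F factors E2f7 (-2.02) and E2f8 (-1.86), cyclin E2 (Ccne2, -2.002) and cyclin A2 (Ccna2, -1.76) fell. Cyclin D1 (Ccnd1, -0.051) did not pass the threshold, but was lower past it after quantile normalization, while Ccnd2 (0.35) and Ccnd3 (0.700) rose.

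Of 33 targets of the tumour suppressor p53, 23 rose and 1 fell, with a median of 0.49. The largest increase was that of Pmaip1 (Noxa), a BH3-only activator of cell death, from 1313, 1544 and 1454 to 4150.4, 4580.3 and 4751 (1.63 ± 0.137 SE, adjusted p = 3.54e-08). The death receptor Fas (1.45), the stress protein Sesn1 (1.44) and the DNA repair genes Ddb2 (1.15) and Xpc (1.02) followed, and Mdm2, the ligase that degrades p53, rose by 0.88. The receptor gene Tnfrsf10b fell (-0.58), but by 0.06 and not past the threshold without probe sets that can bind related transcripts.

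In the BCL2 and caspase list 8 of 24 rose and 6 fell, shares near the 36.1% and 20.6% of all genes. Among them the BH3-only genes Bmf (1.74) and Bcl2l11 (Bim, 1.29) rose, and so did Casp4 (1.28) and Casp12 (0.86). The survival genes Bcl2 (-0.12) and Bcl2l1 (-0.14) did not pass the threshold. Bcl2l1 was lower past it after quantile normalization and without KO replicate 1 (-0.22).

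Of 28 imprinted genes, 19 rose and 1 fell, with a median of 0.39. Besides Igf2, Dcn and Cdkn1c, the largest increases were in Mest and Peg3, both expressed from the paternal allele. Mest went from 209, 185 and 161 to 2960.4, 1526 and 2626 (3.52 ± 0.188 SE). It measured 468 in control cells and 1462 in +/+ cells with tamoxifen, both above its KO level. Peg3 went from 1554, 1769 and 1877 to 15558, 14453 and 14222 (3.08 ± 0.0773 SE). The paternally expressed Dlk1, a non-canonical Notch ligand, rose from 3131 to 8981 (1.52, and 0.81 without probe sets that can bind related transcripts). Peg10, Magel2 and Ascl2 stayed near background in both groups, Grb10 rose by 0.16, and Sgce was the member that fell (-0.52).

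In the insulin-like growth factor axis 12 of 16 rose and 1 fell, with a median of 0.85. Both ligands rose: beside Igf2, Igf1 read 20.9, 35.3 and 23.9 in KO and 1239, 384 and 809 in KO/Kd cells (4.14 ± 0.291 SE, adjusted p = 4.39e-09). The receptors Igf1r (0.72), Insr (0.99) and Igf2r (1.34) and the adaptors Irs1 (0.62) and Irs2 (0.98) rose as well. Of the binding proteins, which hold the ligands in the medium, Igfbp4 rose (1.397) and Igfbp6 fell (-1.52). Igfbp6 measured 510 in KO, 182 in KO/Kd and 87.6 in +/+ cells with tamoxifen, and Igfbp4 3398, 8942 and 1743 in that order. Igfbp5 rose by 2.06 on a probe set that can bind related transcripts, and its other probe set gave 0.10 and did not pass the threshold.

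All 20 cholesterol synthesis genes tested fell, with a median of -0.99, against 20.6% of all genes. Lss, which closes the sterol ring, measured 1586, 1814 and 2198 in KO and 144, 329 and 283 in KO/Kd cells (-2.87 ± 0.197 SE, adjusted p = 3.28e-09). Without probe sets that can bind related transcripts its log2 fold change was -1.60. Idi1, the isopentenyl diphosphate isomerase, measured 8296, 9957 and 9964 and 1830.4, 2531 and 2107 (-2.12 ± 0.103 SE, adjusted p = 5.07e-11). The sterol carrier Stard4 (-1.65), squalene synthase Fdft1 (-1.64) and Nsdhl (-1.52) followed. Srebf2, the transcription factor that drives the pathway, fell from 1512 to 1149 (-0.38), and the smallest decrease was in Ebp (-0.25), which did not pass the threshold without KO/Kd replicate 3 (-0.198) or with the compared groups fitted alone. In cells with intact Hdac1 the knockdown lowered 8 of the 20 (background 3.02% lower), with a median of -0.27.

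Capitals in the promoters of Lss (chr10:76531355-76531654, plus strand) and Idi1 (chr13:8885356-8885655, plus strand) mark CCAAT boxes. The CCAAT letters were in 15 of 16 cholesterol promoters (93.8%), against 38.6% of all. A sterol response type motif (TCACNCCAC or GTGGNGTGA) was in 1 of 16 (6.25%), against 1.06% of all.
Lss: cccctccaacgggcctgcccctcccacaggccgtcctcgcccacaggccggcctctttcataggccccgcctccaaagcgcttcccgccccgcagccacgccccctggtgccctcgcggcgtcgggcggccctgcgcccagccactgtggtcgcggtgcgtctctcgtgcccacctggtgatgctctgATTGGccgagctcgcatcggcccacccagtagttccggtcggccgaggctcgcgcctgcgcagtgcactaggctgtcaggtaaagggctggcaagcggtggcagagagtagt
Idi1: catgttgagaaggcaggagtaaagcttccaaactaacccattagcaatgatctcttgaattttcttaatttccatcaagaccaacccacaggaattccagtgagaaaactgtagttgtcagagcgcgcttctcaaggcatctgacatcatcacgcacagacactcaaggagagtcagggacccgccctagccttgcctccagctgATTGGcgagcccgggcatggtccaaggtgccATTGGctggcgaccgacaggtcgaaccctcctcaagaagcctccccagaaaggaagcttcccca

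The NRF2 and xenobiotic genes split, with 6 of 22 higher and 10 lower. Beside Nqo1, sulfiredoxin Srxn1 (-2.14), the cystine transporter Slc7a11 (-1.600), haem oxygenase Hmox1 (-0.78) and the glutathione synthesis enzyme Gclc (-0.73) fell. Ahrr, the repressor of the aryl hydrocarbon receptor, fell too (-1.87), and the carbonyl reductases Cbr1 (0.68) and Cbr3 (0.44) rose. Hmox1 measured 3314 in control, 5448 in KO and 3174 in KO/Kd cells, so its decrease started from a KO level above control.

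Lysosome and autophagy genes rose almost throughout, 28 of the 30 tested and 0 lower, with a median of 0.76, and 28 rose after quantile normalization. The cathepsins Ctsf and Ctsk, proteases of the lysosome, rose from 28.4 to 237 (2.46) and from 29 to 162 (1.99). Neu1, the lysosomal sialidase, rose from 243 to 919.5 (1.86). Gaa, the acid glucosidase, read 1862, 2143 and 2420.2 in KO and 6361, 5722 and 6705 in KO/Kd cells (1.55 ± 0.0865 SE, adjusted p = 3e-10). Abundant members moved less, such as cathepsin D (Ctsd, 1.05), cathepsin B (Ctsb, 0.83) and the membrane protein Lamp1 (0.696). Tfeb, a transcription factor of the pathway, was dim and rose by 0.57.

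The stress list was mixed, with 10 of 25 higher and 9 lower. The largest decreases were in Trib3 (-1.24), Chac1 (-1.11), Asns (-0.89) and Shmt2 (-1.12), and Atf4, the transcription factor of the amino acid response, fell from 12063 to 7468 (-0.699). Chaperone genes of the endoplasmic reticulum included increases in Sdf2l1 (0.77) and Dnajb9 (0.58). Ppp1r15a, the phosphatase subunit known as GADD34, rose by 1.04.

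Genes of the extracellular matrix mostly rose. Of 23 collagen genes 15 rose and 2 fell, with a median of 0.76. Col3a1, a fibrillar collagen of loose connective tissue, read 9887, 10562 and 11173 in KO and 29315, 31527 and 28839 in KO/Kd cells (1.503 ± 0.072 SE, adjusted p = 4.56e-11). Col27a1 (1.92), Col8a2 (1.74) and Col5a3 (1.59) rose more, from lower levels. Col1a1 (-0.002) did not pass the threshold, and the collagen VI chains Col6a1 (-0.75) and Col6a2 (-1.02) fell.

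Of 36 proteoglycan, elastic fibre and other matrix genes, 27 rose and 3 fell, with a median of 0.60. Abi3bp, a matrix protein, rose from 239 to 2269 (3.13), against 825 in control cells. The microfibril genes Mfap4 (2.39) and Mfap2 (2.38), Sparcl1 (2.41) and fibrillin 2 (Fbn2, 1.58) rose. Among small leucine-rich proteoglycans Dcn, Lum (1.47), Ogn (0.98) and Fmod (0.601) rose, while Aspn and Omd (-1.93) fell. Aspn read 1578, 1609.9 and 1673 in KO and 218, 169.8 and 279.9 in KO/Kd cells.

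Of 23 matrix proteases and inhibitors 13 rose and 4 fell. The metalloprotease Adamts7 rose from 59.1 to 538 (2.897) and tissue plasminogen activator Plat from 2631 to 8349 (1.66). Plaur, the urokinase receptor, read 2606, 3120.3 and 3633 in KO and 538, 531 and 718 in KO/Kd cells (-2.36 ± 0.131 SE, adjusted p = 2.85e-10), and Mmp23 fell by 1.69. Of 18 cartilage and bone genes 9 rose and 4 fell. Aggrecan (Acan), the main cartilage proteoglycan, read 99.8, 85.6 and 129 and 1916, 1819.5 and 1701 (3.93 ± 0.136 SE, adjusted p = 7.63e-13). Acan measured 348 in control cells and 1268 in +/+ cells with tamoxifen, both above its KO level. The parathyroid hormone receptor Pth1r rose by 1.98. Collagen II (Col2a1) did not pass the threshold (-0.098, and past it at -0.21 without KO/Kd replicate 2), and Comp fell (-0.71).

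Adhesion genes exchanged members, with 16 of 32 higher and 7 lower. Icam1, a ligand of leukocyte integrins, rose from 15.8 to 436 (3.75) and Cdh13, a cadherin without a cytoplasmic tail, from 87.2 to 1222 (3.598). The integrin subunits Itga7 (1.89), Itga8 (1.76) and Itgb5 (1.18) rose, and Itgb3 (-1.64), Itga6 (-1.56), Itga5 (-1.06) and Itga3 (-0.95) fell. The contractile genes moved little: 11 of 24 rose and 3 fell (5 without KO replicate 1), with a median of 0.09, but 7 rose and 8 fell after quantile normalization. The largest change was in myosin light chain kinase (Mylk, 1.07).

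**Figure D4:**
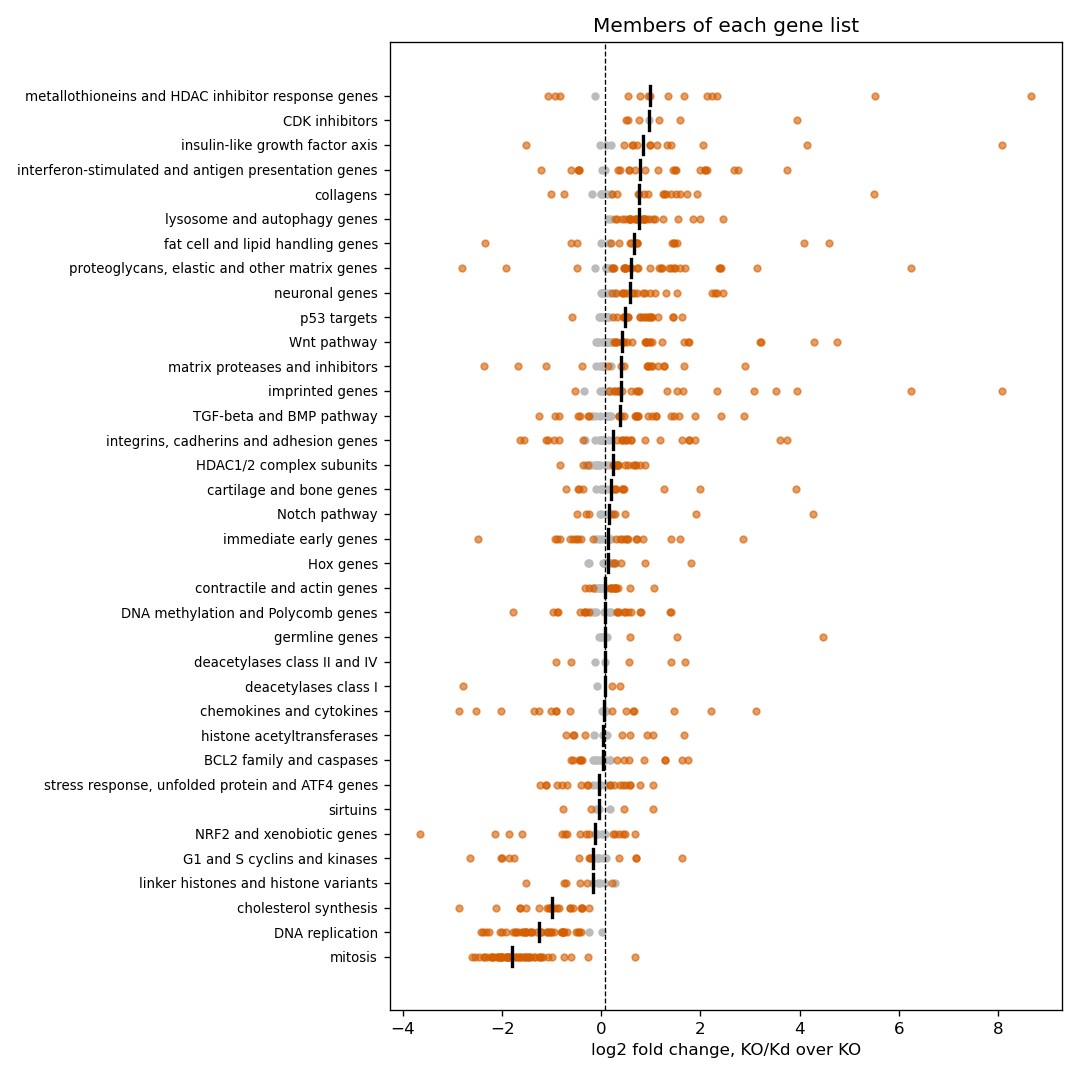
Log2 fold change of KO/Kd over KO for the tested members of each of the 36 gene lists other than cell type markers, 1 point per gene, orange where past the threshold. Black bars are list medians and the dashed line is the median of all genes (0.08). Mitosis (-1.81), DNA replication (-1.25) and cholesterol synthesis (-0.99) have the lowest medians.

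In the Wnt pathway 25 of 40 genes rose and 0 fell, with a median of 0.43. After quantile normalization 23 rose and 1 fell. Among ligands Wnt5b (3.21), Wnt9a (1.77) and Wnt4 (1.74) rose. Rspo3, a secreted enhancer of Wnt signalling, read 22.3, 20.3 and 30.7 in KO and 805, 729 and 778 in KO/Kd cells (4.29 ± 0.129 SE, adjusted p = 1.73e-13). Inhibitors rose as well, with Sfrp1 from 58.1, 48.7 and 63.1 to 2448, 1472 and 2041 and Dkk2 from 14.9 to 286 (3.205). Of the receptors, Fzd1 rose from 1460.1 to 4691 (1.67), and the target gene Axin2 rose by 0.99, at low intensity.

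In the TGF-beta and BMP pathway 20 of 34 genes rose and 7 fell, with a median of 0.38. The ligands Bmp4, from 549 to 4239.9 (2.88), and Inhbb, from 994 to 5354 (2.42), rose, and so did the antagonist follistatin (Fst, 1.89). The receptors Tgfbr1 (0.71), Tgfbr2 (0.94) and Bmpr1b (1.46) and the signal transducer Smad3 (1.11) rose. The BMP target genes Id1 (-1.26), Id2 (-0.85) and Id3 (-0.94) fell. Id1 read 5388, 6253 and 6286 in KO and 2374, 2635 and 2417 in KO/Kd cells. The inhibitory Smad6 (-0.27) and Smad7 (-0.42) fell too. The Smad6 call was lost without KO replicate 3 (-0.24) or KO/Kd replicate 1 (-0.201) and with array weights.

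Of 13 Notch pathway genes 5 rose and 3 fell, shares near the 36.1% and 20.6% of all genes. After quantile normalization 2 rose and 3 fell. Only 2 rose without KO replicate 1, KO replicate 2 or KO/Kd replicate 2, and 3 without KO/Kd replicate 1. The receptor Notch3 read 80.3, 72 and 111 in KO and 1785, 2069 and 2029 in KO/Kd cells (4.27 ± 0.121 SE, adjusted p = 8.1e-14). The non-canonical ligand Dner rose from 347 to 1364 (1.904). The target gene Hes1 fell from 774 to 542 (-0.496), but not past the threshold with array weights.

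Immediate early genes split, with 12 of 28 higher and 10 lower. Fosl1, an AP-1 subunit, read 1412, 1503 and 1759 in KO and 268, 277 and 252 in KO/Kd cells (-2.48 ± 0.115 SE, adjusted p = 2.93e-11), and Myc fell by 0.92. The AP-1 subunit Fos read 1261, 1106 and 1105 and 4492, 2558 and 3703 (1.58 ± 0.237 SE, adjusted p = 2.56e-05). Dusp4, a phosphatase of MAP kinases, rose from 155 to 1207 (2.86), and the orphan receptor Nr4a3 rose by 1.41 from background.

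Of 22 chemokines and cytokines 7 rose and 9 fell, against 36.1% and 20.6% of all genes. Ccl2 read 2329.6, 2856 and 2809 in KO and 313, 429 and 311 in KO/Kd cells, and Ccl7, the neighbouring monocyte attractant, fell from 1357 to 232 (-2.53). The interleukin 6 family cytokines Il11 (-2.02) and Lif (-1.36) fell. Il11 measured 246 in control, 821 in KO and 190 in KO/Kd cells. Its KO/Kd level did not differ from control past the threshold (-0.32, limma adjusted p = 0.0678). Cxcl14 (3.11), the interleukin 1 antagonist Il1rn (2.21) and Cxcl12 (1.47) rose. In +/+ cells with tamoxifen Ccl2 measured 1858, Ccl7 223, Il11 1008 and Il1rn 464. Cxcl14 measured 2159 there, against 325 in KO/Kd cells.

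Of 24 interferon-stimulated and antigen presentation genes, 17 rose and 5 fell (3 without KO replicate 3 or KO/Kd replicate 1), with a median of 0.78. Psmb8, a subunit of the immunoproteasome, read 56.3, 63.5 and 60.7 in KO and 981, 1165 and 878 in KO/Kd cells (3.74 ± 0.101 SE, adjusted p = 4.34e-14). The peptide transporter Tap1 (2.68), the class I heavy chains H2-K1 (2.09) and H2-D1 (2.13) and Nlrc5, the class I transactivator (2.095), rose. Class I heavy chains are near-identical paralogs whose probe sets may share signal. The antiviral genes Ifit2 (-1.21) and Gbp2 (-0.48) fell, whereas Bst2 (2.76) and Usp18 (1.98) rose.

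Genes of other lineages were also tested. Of 37 neuronal genes listed 26 were tested, and 19 of these rose and 0 fell, with a median of 0.57. Genes dim in all other groups could be tested only through their KO/Kd arrays, and genes at background cannot fall. The excess of increases is therefore partly built in. Uchl1, a ubiquitin hydrolase abundant in neurons, read 243, 230.4 and 345 in KO and 1504, 1646 and 1521 in KO/Kd cells (2.47 ± 0.119 SE, adjusted p = 4.91e-11). The kinesin Kif5c (2.34), the tubulin regulator Stmn2 (2.300), neuronal tubulin Tubb3 (2.24) and Gap43 (1.52) rose. The other 7 did not pass the threshold. Rest, the repressor of neuronal genes that recruits Hdac1 and Hdac2 complexes, was itself 0.44 higher.

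Of 18 fat cell and lipid genes 13 rose and 3 fell. Lpl, lipoprotein lipase, read 30, 41.4 and 53 in KO and 1144, 1289 and 1674 in KO/Kd cells (4.59 ± 0.144 SE, adjusted p = 2.45e-13), and Apoe rose from 13.7 to 495 (4.09). Pparg, the master regulator of fat cells, went the other way, from 261, 291 and 402 to 57.4, 52.5 and 38 (-2.34 ± 0.167 SE, adjusted p = 5.23e-09). Of 10 germline genes 3 rose: Cox6b2, a testis form of a cytochrome oxidase subunit, from 288, 309 and 454 to 7743, 8029 and 8239 (4.48 ± 0.14 SE, adjusted p = 2.45e-13), Hspa2 (1.54) and Tex15 (0.59). The other 7 did not pass the threshold. Of 17 Hox genes 5 rose and 0 fell, led by Hoxb4 (1.82), and 3 rose and 2 fell after quantile normalization. Over all genes 36.1% rose and 20.6% fell, and neither the germline nor the Hox list had a larger share of increases. Leaving out KO replicate 1, KO/Kd replicate 2 or KO/Kd replicate 3 left 3 Hox genes higher.

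Of 15 metallothioneins and genes known to answer HDAC inhibitors, 11 rose and 3 fell, with a median of 0.98. Beside the Bex genes, clusterin (Clu, 2.33), Tubb3 and the metallothioneins Mt1 (1.34) and Mt2 (1.66) rose. Clu rose by 1.27 without probe sets that can bind related transcripts. Gelsolin (Gsn), a classic inhibitor-induced gene, did not pass the threshold (-0.12, and past it at -0.19 without KO replicate 1). Cd9 (-1.07), Thy1 (-0.93) and Klf2 (-0.82) fell. Thy1 measured 280 in control, 641 in KO and 328 in KO/Kd cells.

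Other chromatin genes moved in both directions, against 36.1% higher and 20.6% lower over all genes. Of 27 DNA methylation and Polycomb genes 11 rose and 9 fell: the maintenance factors Uhrf1 (-1.77) and Dnmt1 (-0.89) and the H3K27 methyltransferase Ezh2 (-0.96) fell, and Tet1 (1.41), which oxidises methylcytosine, Jarid2 (1.38) and Dnmt3a (0.78) rose. Of 13 acetyltransferases 5 rose, led by the coactivators Ncoa1 (1.67) and Kat2b (1.04), and 4 fell, led by Kat8 (-0.72). The shares of increases in both lists were near that of all genes. After quantile normalization 8 methylation and Polycomb genes rose and 12 fell, and 4 acetyltransferases rose and 5 fell. The shares over all genes were then 30.0% and 31.2%. Of 11 linker histones and histone variants 1 rose and 5 fell, with the centromeric Cenpa (-1.52), H2az1 (-0.75) and H2ax (-0.71) the lowest.

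Markers of cell types were measured beside these groups. All 13 fibroblast markers were detected, 7 rose and 2 fell (4 without KO replicate 1), and their summed intensity was 211420 to 244379 on KO and 244060.5 to 261407 on KO/Kd arrays. In the pericyte and smooth muscle list, 5 of the 7 tested markers rose and 2 fell, with sums of 3599 to 4334 and 7100.2 to 7823. Notch3 and Rgs5 (2.49) were among those that rose, and Foxs1 (-0.88) and Cspg4 (-0.79) fell. After quantile normalization 4 rose and 2 fell. Of 5 neuron and glia markers 3 rose, with sums of 389 to 558 and 1783 to 1936, almost all of it Tubb3. One of the 3, Erbb3, was under 30 on all 6 arrays and not past the threshold after quantile normalization (adjusted p = 0.0554), while Rbfox3 and Sox10 stayed near background. Of 3 endothelial markers tested Kdr (1.45) and Flt1 (1.35) rose, with sums of 298 to 445 and 813 to 991. The other 7 of that list, Pecam1 and Cdh5 among them, were not kept for testing, which needed a probe set of 1 gene past the intensity filter. Also not kept were 7 of 12 macrophage and blood markers and 6 of 11 neuron and glia markers. The same held for 5 of 10 skeletal muscle, 4 of 12 epithelial and 3 of 10 pericyte and smooth muscle markers.

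Of 8 epithelial markers the desmosomal Dsp rose from 29.7 to 501 (3.49), and Krt19 (-1.53) and Epcam (-0.27) fell, with sums of 923 to 1167 and 898 to 1180.0. Epcam lost its call without KO replicate 2 (-0.199) and with array weights. Of 5 macrophage markers Cd68 (0.63) rose and Csf1r (-1.12) fell, with sums of 399 to 605 and 344 to 520.3. Cd68 was 0.38 without KO/Kd replicate 2 and lost its call with array weights, and Csf1r was -0.54 as the mean of its probe sets. Of 5 skeletal muscle markers Acta1 fell, and Myog (0.49) and Tnnt3 (0.56) rose but stayed under 50, with sums of 2881 to 3508 and 289 to 428. The part of other cell types in the changes of matrix, neuronal and pericyte genes was not tested. In these bulk samples fewer cells of a kind, such as dividing cells, and less RNA per cell cannot be told apart.

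The knockdown was then compared between Hdac1-deleted and Hdac1-intact cells. These comparisons share no arrays. In cells with intact Hdac1, Kd against control, 1408 genes passed the threshold (10.5%), 1004 higher (7.50%) and 404 lower (3.02%). The effect itself differed between deleted and intact cells for 5738 genes (42.9%), higher in deleted cells for 3443 (25.7%) and lower for 2295 (17.1%). After quantile normalization these were 3222 and 3459. Tamoxifen was present in the deleted pair and absent in the intact pair, so the deletion and the drug cannot be told apart here.

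Of the 1138 genes at least 2-fold higher in KO/Kd cells, 294 were also called higher in Kd cells, 39 were called lower, and 805 did not pass the threshold there. For 1099 of them the effect was more positive in deleted cells past the threshold. Of the 466 genes at least 2-fold lower, 76 were also lower in Kd cells, 13 were higher and 377 did not pass the threshold. For 449 of them the effect was more negative in deleted cells past the threshold. The tested difference contains the deleted-cell effect by which both sets were picked. High counts were therefore built in, and they are no separate support for a difference. The 1112 genes called in both comparisons made up 14.6% of the calls in deleted cells, against 10.5% of all genes called in intact cells. They made up 79.0% of the calls in intact cells, against 56.8% of all genes called in deleted cells. Of the 1112, 892 had the same sign. Over 13382 genes the fold changes had a Pearson correlation of 0.345 and a Spearman correlation of 0.279, as a description across genes.

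The 8 genes with the most positive difference were Bex1, Igf2, Mgst1, Itih5, Gpx3, Bex2, Clca3a2 and Col14a1. Bex1 measured 21.2 ± 5.23 in control and 46.9 ± 5.06 in Kd cells (SD, n = 3), a knockdown effect of 0.76 (adjusted p = 0.00403). The effects differed by 7.91 ± 0.22 SE (adjusted p = 3.69e-13). Igf2 had an effect of 0.29 (adjusted p = 0.362) in intact cells, and a difference of 7.80 ± 0.252 SE (adjusted p = 1.65e-12). Dcn differed from them in that it already rose in Kd cells, from 22.4 ± 2.6 to 298 ± 11.4 (3.03, adjusted p = 9.8e-11), and rose more in deleted cells (difference 3.21 ± 0.169 SE, adjusted p = 5.43e-10).

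The most negative difference was that of S100a4, whose effect in intact cells was -0.48 (adjusted p = 0.00639) and whose difference was -4.18 ± 0.146 SE (adjusted p = 4.47e-12). Acta1, Styk1, Ifi202b, Lrr1 and Cdca2, a mitotic chromatin protein, were others of the 8. The remaining pair, Cxcl3 and Lmcd1, owed their place to an increase in intact cells. Cxcl3, a neutrophil attractant, rose from 21.6 ± 0.66 to 500.5 ± 58.7 in intact cells (3.77, adjusted p = 7.76e-13), and read 22, 19 and 23.5 in KO and 41.8, 48 and 40.9 in KO/Kd cells (0.67). Lmcd1, a LIM domain protein, rose by 2.40 in intact cells (adjusted p = 1.65e-06) and did not pass the threshold in deleted cells (-0.34, adjusted p = 0.21).

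Of the 1112 genes called in both comparisons, 220 went in opposite directions, 116 of them higher in deleted cells. Dlk1 fell from 4256 ± 198 to 1206 ± 23.4 in intact cells (-1.80, adjusted p = 1.93e-10) and rose from 3131 ± 351 to 8981 ± 332 in deleted cells. Gas6, a ligand of TAM receptors chosen here after its values were seen, fell from 325 ± 38.5 to 221 ± 29.7 in intact cells (-0.53, adjusted p = 0.00669) and rose from 962 ± 76 to 7331 ± 788 in deleted cells (2.91).

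**Figure D5:**
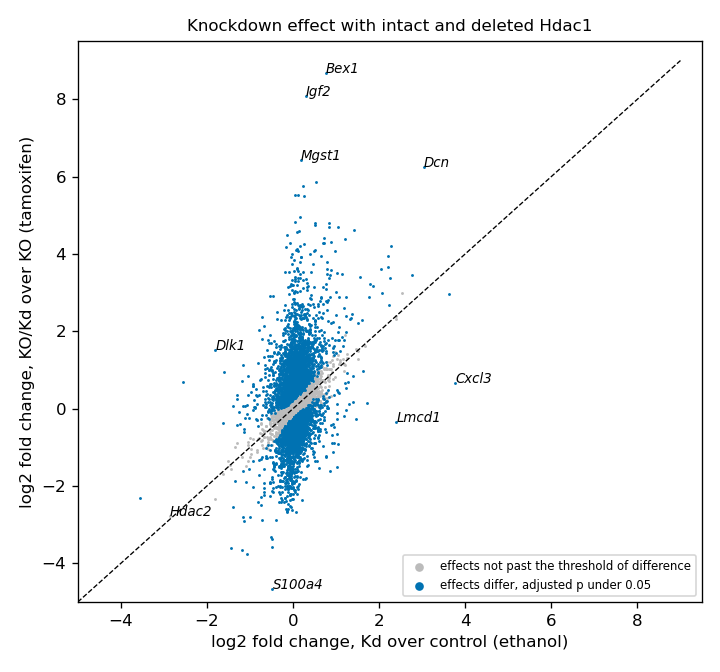
Log2 fold change of the knockdown in Hdac1-deleted cells (KO/Kd over KO, with tamoxifen) against that in Hdac1-intact cells (Kd over control, with ethanol), 1 point per gene, 13382 genes. Blue genes have effects that differ past the threshold, and the dashed line marks equal effects. Hdac2 lies close to the line, while Bex1, Igf2 and Mgst1 lie far above it and Cxcl3 and Lmcd1 to its right.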

How the data were processed

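RNA of 15 samples was hybridised to Affymetrix Mouse 430v2 arrays, per the labels' protocols. The authors' deposited table holds 1 linear intensity for each of 45037 probe sets and each array. The sources used here do not state how it was summarised and scaled. Of the probe sets 34945 had 1 gene symbol, and 932 with several and 9160 with none were left out. Values were taken as log2(intensity + 16). Probe sets were kept when they exceeded the 40th percentile of an array on 3 or more arrays. These could be arrays of any group, so a gene dim elsewhere could enter through its KO/Kd arrays alone. In lists of dim genes the counts of increases are therefore partly built in. Each gene was then represented by its brightest probe set on average, leaving 13382 genes. No 2 arrays were identical (0 pairs).

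limma 3.58.1 (R 4.3.3) fits used the 15 arrays together, each group having its own coefficient, with eBayes and Benjamini-Hochberg adjustment per comparison, with a threshold of 0.05. Precision is limited by how many arrays there are, and the median SE was 0.0867, and 0.123 for the difference of effects. Tested on simulated data for KO/Kd against KO with 13382 genes, the procedure recovered 15% of genes changed by 0.25 on the log2 scale, 73.6% at 0.5, 99.6% at 1 and 100% at 2. Each of 5 runs changed 200 genes, with independent normal noise and no shift of whole arrays. Unchanged genes made up 4.38% of the simulated calls. In the data 56.8% of genes were called, and array medians were higher in KO/Kd cells. The simulated shares therefore do not carry over to the 7598 calls.

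Members and the 43 gene lists (863 of 1023 entries tested) were chosen with earlier results of these data known. Named genes were the class I deacetylases, the 15 highest and 15 lowest called genes with arrays that did not overlap (clone and model names passed over), up to 5 of the largest changes per list, all CDK inhibitors and class II and IV deacetylases, the 8 highest and 8 lowest differences of effects, and other-cell-type markers past the threshold. A gene among the lowest is plotted but not described. Further list members are named for their role or as exceptions, after their values were seen. Alternatives covered scaling, filters, probe sets, the model, the pseudocount and each array left out.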

Additional observations from a re-analysis of the deposited data

Results flagged for a closer look

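The effect of the knockdown differed between Hdac1-deleted and Hdac1-intact cells, by a test of the difference itself, for 5738 genes. Among the named genes the difference (log2, deleted minus intact) was 7.91 for Bex1, 7.80 for Igf2, 6.24 for Mgst1, 5.54 for Itih5, 5.50 for Gpx3, 5.40 for Bex2, 5.33 for Clca3a2 and 5.25 for Col14a1. It was -4.18 for S100a4, -3.10 for Cxcl3, -3.08 for Acta1, -2.90 for Styk1, -2.83 for Ifi202b, -2.75 for Lrr1, -2.73 for Lmcd1 and -2.60 for Cdca2.

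In 25 of the 33 lists with 10 or more tested genes, at least 50% of the members had an effect that differed past the threshold, against 42.9% of all genes. They numbered 50 of 50 for mitosis, 40 of 42 for DNA replication, 26 of 30 for lysosome and autophagy genes, 13 of 15 for HDAC inhibitor response genes and 20 of 24 for interferon and antigen presentation genes. The matrix lists had 28 of 36 (proteoglycans and elastic fibres), 14 of 23 (collagens), 13 of 23 (proteases) and 24 of 32 (adhesion). Signalling lists had 21 of 34 (TGF-beta and BMP), 21 of 40 (Wnt), 14 of 28 (immediate early genes), 16 of 22 (chemokines and cytokines) and 12 of 16 (insulin-like growth factor axis). Metabolic and stress lists had 14 of 20 (cholesterol synthesis), 13 of 22 (NRF2), 16 of 25 (ATF4 and unfolded protein) and 11 of 18 (fat cell genes). The others had 24 of 33 (p53 targets), 10 of 19 (G1 and S regulators), 12 of 24 (BCL2 family and caspases), 19 of 28 (imprinted genes), 17 of 26 (neuronal genes), 18 of 27 (DNA methylation and Polycomb) and 7 of 13 (acetyltransferases).

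Hdac2 itself fell by 2.78 in deleted cells and had a log2 fold change of -2.86 in intact cells. Tamoxifen was present with the deletion, and their parts cannot be told apart.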

How the results depend on the processing

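The count of 7598 genes changed in KO/Kd against KO stayed between 6038 (array weights) and 8196 (quantile normalization) under 12 alternative settings, and between 7085 and 7623 with each array left out. The count of 5738 differing effects stayed between 5103 and 6681, and between 5199 and 5890 with each array left out. Scaling to a common 75th percentile was added after seeing the data. Leaving out arrays moved the called split from 4256 higher and 3140 lower (without KO replicate 1) to 5316 and 2307 (without KO replicate 3). Array weights gave KO replicate 2 a weight near 0 with incomplete convergence. Of 256 named genes, 234 kept their direction and their side of the threshold in each alternative that tested them, which was 16 to 18 of the 18 for this comparison.

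Scaling moved small differences: Hdac3 and Hdac8 lost their call under at least 1 scaling, and Hdac5, Tyms, Col1a1, Col2a1, Ccnd1, Gsn, Bcl2 and Bcl2l1 gained one as lower. Sirt1, Smad6, Ebp, Epcam, Cd68 and Hes1 lost theirs under at least 1 other alternative. Reversals concerned values near 0, apart from that of Bub3, which was called lower on the deposited scale. Hdac4 was -0.17 after quantile normalization, -0.028 after centring and -0.06 at a common 75th percentile. Gins4 was -0.10, -0.084 and -0.13 in that order, and -0.009 with array weights. Ccnd1 was 0.022 with array weights, and Bub3 0.20 without _x_at and _s_at probe sets, another probe set then standing for the gene. With each array left out, Hdac1 ran from -0.27 to 0.15, Ccnd1 from -0.14 to 0.018, Gins4 from -0.062 to 0.090 and Col1a1 from -0.046 to 0.061. Cd68 was 0.38 without KO/Kd replicate 2, and Lmcd1 was -0.048 without it. The cause was not tested.

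Averaging a gene's probe sets, which mixes in dim or distal ones, changed several values by over 1.5 times without ending a call: Bmpr1b (0.69), Ccnd3 (0.23), Cdc45 (-1.17), Cenpa (-0.87), Col14a1 (3.05), Csf1r (-0.54), Ctsb (1.496), E2f8 (-1.13), H2-D1 (1.14), Hdac2 (-1.801), Hdac9 (0.29), Igf2 (4.76), Insr (0.54), Itga3 (-0.58), Kif5c (1.41), Lif (-0.79), Lss (-1.52), Mcm10 (-0.96), Neu1 (1.19), Plat (0.95), Psmb8 (2.05), Rb1 (1.38), Rgs5 (1.53), Sirt5 (-0.46), Smad7 (-0.26), Srxn1 (-1.26), Tap1 (1.54), Tet1 (0.58), Tnfrsf10b (-0.32) and Wnt4 (1.14). Without _x_at and _s_at probe sets Wnt5b was 2.04. With a pseudocount of 1 the dim genes Hdac9, Myog, Tex15 and Tnnt3 were 0.89, 0.76, 0.94 and 0.903.

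Replicate numbers are shared across groups, but same-numbered KO and KO/Kd arrays did not deviate together (correlations of 0.104, -0.079 and -0.159). With the replicate number as a block 7456 genes changed, and 5513 effects differed. The mitosis, replication and cholesterol lists then had 49, 40 and 20 genes lower, and Sirt1 lost its call.

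Arrays give no counting depth. Genes near background in KO cells have only a compressed increase and no measurable decrease. In lists of dim genes the stricter filter left fewer to test. Over all genes it left 10049, of which 6805 were called.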

Other observations

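Genes at least 2-fold higher in KO/Kd cells were spread over the chromosomes. Their share of the tested genes ran from 6.22% on chromosome 14 to 11% on chromosome 4, and was 9.81% on the X chromosome, which carries the Bex genes. The share of genes at least 2-fold lower ran from 2.27% on chromosome 18 to 4.44% on chromosome 15.

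Further genes that the knockdown moved in opposite directions with and without Hdac1, chosen after their values were seen, encode cell surface and secreted proteins among others. Cadm4, an adhesion molecule, fell from 341 ± 5.3 to 202 ± 18.9 in intact cells (-0.72, adjusted p = 0.00341) and rose from 694 ± 138 to 3669 ± 774 in deleted cells (2.38, adjusted p = 6.79e-10). Selenop, the plasma selenium carrier, fell from 254 ± 77.9 to 137 ± 24.6 (-0.79, adjusted p = 0.0053) and rose from 163 ± 10.9 to 718 ± 128 (2.02, adjusted p = 2.82e-08). Ndnf, a secreted neurotrophic factor, fell from 253 ± 12.4 to 72.3 ± 11.1 (-1.61, adjusted p = 4.87e-06) and rose from 212 ± 23.9 to 428 ± 113 (0.94, adjusted p = 0.000109). Rtl3 took the other course, from 761 ± 19.5 to 1569 ± 149.6 in intact cells (1.03, adjusted p = 0.000865) and from 269.9 ± 78.2 to 84.9 ± 29.4 in deleted cells (-1.51, adjusted p = 1.41e-06). All values are mean intensities ± SD of 3 arrays, tested with limma.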
